A study of Mus musculus with 12 samples.

Results

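The genes of the cell cycle and of DNA replication were examined in mouse liver: cyclins, cyclin-dependent kinases, replication factors, and spindle and mitosis genes. They were chosen by symbol, as the 37 genes of the count table whose symbol was on a list of such genes, out of 27304 genes in all. Gene expression was measured by RNA-seq of total RNA from 12 livers that were extracted after the mice had been flushed with PBS. All mice were labelled Apoe-/-, a knockout of the gene of apolipoprotein E, and all had been fed a diet labelled HFD for 12 weeks. The controls were 3 males and 3 females labelled Apoe-/-, and the Ahr-null group was 3 males and 3 females labelled Apoe-/-AhR-/-, which also lacked the aryl hydrocarbon receptor, a transcription factor activated by small molecules. Age apart from the time on the diet, strain and the alleles were not given in the sources used here. Replicate numbers only name the libraries, and nothing beyond the 1 liver per sample says how the mice were housed or bred, so the p-values reflect only the variation among these livers, part of which may be technical.

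Growth signals induce D-type cyclins, which activate CDK4 and CDK6. These kinases phosphorylate the retinoblastoma protein and free E2F factors, which turn on genes for cyclin E, for the MCM helicase that is loaded at replication origins, and for nucleotide synthesis. Genes of late S phase and mitosis follow under the DREAM and FOXM1-MYB complexes, with cyclin B and CDK1 driving entry into mitosis and CDC20 its exit. Most hepatocytes of an adult liver rest outside the cycle, so transcripts of these genes are scarce there and can come from any dividing cell, immune and endothelial cells included. In bulk RNA a larger number of cycling cells and more RNA per cycling cell cannot be told apart.

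The library totals ran from 9794253 to 18924880 counts. Levels are given as CPM, library-size normalised counts after TMM scaling, which sets the bulk of the genes equal between libraries. The hepatocyte markers were abundant in every library, with Alb, the gene of serum albumin, between 6281 and 55134 CPM. Whole-gene counts of Ahr were 13.7 to 24.5 CPM in Ahr-null and 12.4 to 25 CPM in control livers. Which part of Ahr is deleted was not given, so these counts check nothing. The same holds for Apoe, whose counts stood at 73.3 to 215 CPM over the 12 libraries. Cyp1a2, a target of the receptor, was at 47.0 to 217 CPM in Ahr-null livers and 452 to 1170 CPM in controls. A pair of libraries held transcripts of neurons and glia: 14 such markers summed to 311 CPM in control male replicate 1 and 481 CPM in Ahr-null female replicate 1, against 42.0 to 98.5 CPM in the other 10. Ahr-null female replicate 1 also had 155 CPM of Xist, an RNA made from the inactive X chromosome, against 679 to 1292 CPM in the other females, and it had 2.02 CPM of the Y-linked Kdm5d, against at most 0.207 CPM in those. The Y-linked Eif2s3y and Uty were at 2.11 and 0.551 CPM in it, against at most 0.982 and 0.436 CPM in the other females. The Y-linked Ddx3y, at 1.84 CPM, was inside their range, which reached 2.51 CPM. Genes called when both are omitted are named beside those called with all libraries.

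Averaged over the sexes, 1 of the 37 genes, the G1 cyclin gene Ccnd1, passed the edgeR quasi-likelihood test at an adjusted p under 0.05, and it was higher in Ahr-null livers. Of all 13641 genes tested, 1.06% passed in either direction and 0.528% as higher. Of the 37 genes 36 had enough counts to be tested, all but the cyclin gene Ccnb1. Most of the 36 had a higher estimate in Ahr-null livers: 34 log2 fold changes were above 0, against 54.2% of all genes tested, and the median of the 36 was 0.84, against 0.04 over all genes. An unadjusted p under 0.05 was reached by 17 of the 36, each with a higher level in Ahr-null livers, against 7.84% of all genes tested being higher at that threshold. The genes of a pathway share their cells and are not independent, so these counts describe the list and test nothing.

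**Figure D1:**
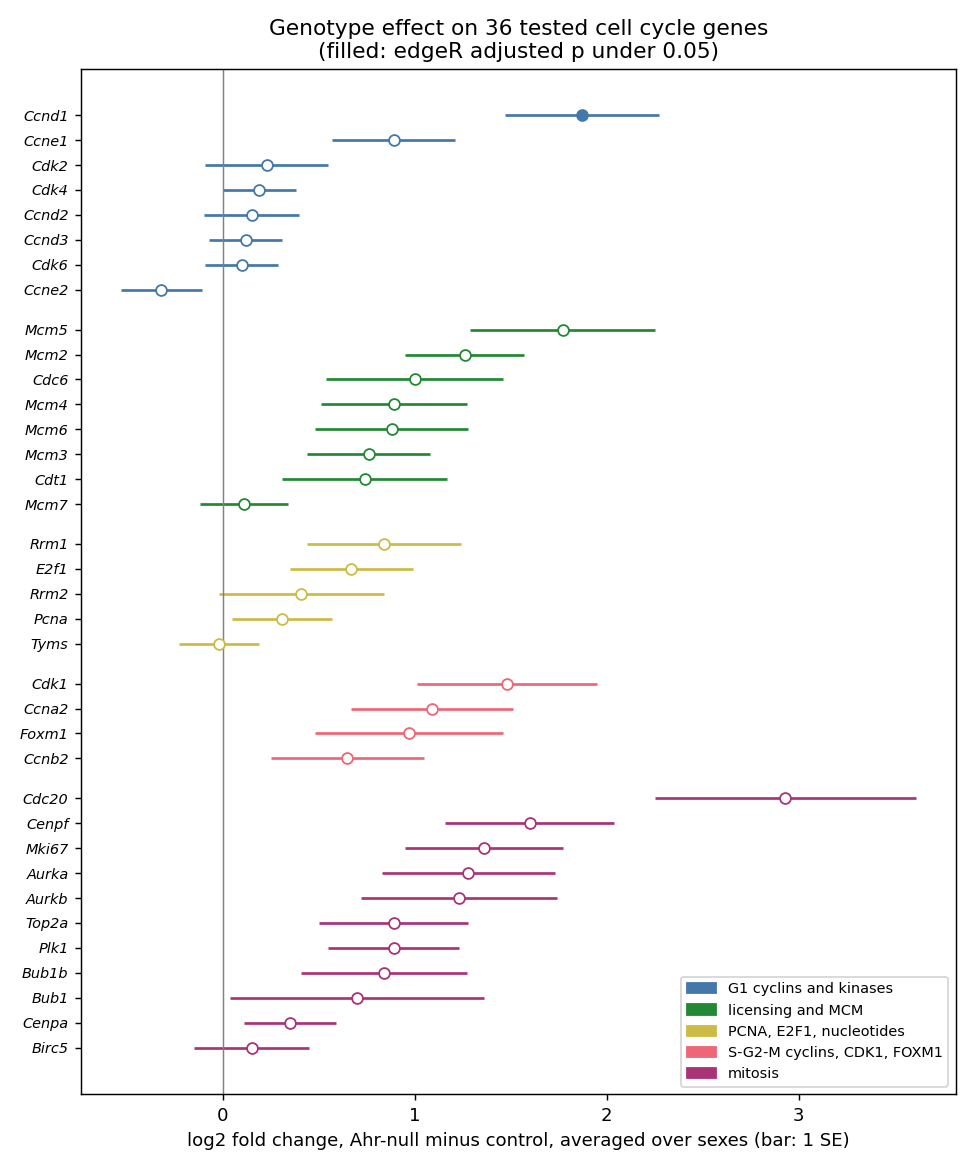
Log2 fold change between Ahr-null and control livers, averaged over the sexes, for the 36 tested genes grouped by role; bars are 1 SE and a filled point marks an edgeR adjusted p under 0.05. Ccnd1 (1.87) is the filled point, Cdc20 (2.93) lies farthest to the right, and Ccne2 (-0.32) and Tyms (-0.02) are the points left of 0.

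The number of calls moved with the libraries and the tool. Without the libraries that held neural transcripts 4 of the genes passed, Ccnd1, Mki67, Mcm2 and Mcm5, all higher, where 3.14% of all genes passed. DESeq2 called 7, these 4 with Cdk1, Cdc20 and Cenpf, where it called 4.87% of all genes. Neither limma-voom nor limma on the deposited values called any.

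Among the 8 genes of G1, Ccnd1 rose and the other 7 did not pass. Ccnd1 encodes cyclin D1, the D-type cyclin best known from regenerating liver (ENSMUSG00000070348, chromosome 7, 144929931 to 144939925, minus strand, GRCm38). In replicates 1, 2 and 3 it stood at 6.57, 1.78 and 3.19 CPM in control males and at 3.93, 5.24 and 3.08 CPM in control females. In Ahr-null males it stood at 12.9, 2.71 and 13.6 CPM, and in Ahr-null females at 30.6, 14.7 and 18.3 CPM. The female groups did not overlap, with each Ahr-null female above each control, whereas Ahr-null male replicate 2 lay inside the range of the control males. The averaged log2 fold change of Ccnd1 was 1.87 ± 0.40 (SE; edgeR adjusted p = 0.0475). In females alone it was 2.38 ± 0.58 (adjusted p = 0.132) and in males 1.36 ± 0.57 (adjusted p = 0.772). The averaged call of Ccnd1 held in 10 of 22 alternatives, with estimates from 1.51 to 2.48. Among the omissions of single libraries it held only without control male replicate 1, Ahr-null male replicate 2 or Ahr-null female replicate 1, and without each of the other 9 the adjusted p lay between 0.0841 and 0.182.

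The other D-type cyclins and the kinases that they bind had smaller estimates. With all libraries Ccnd2 and Ccnd3, the genes of the other D-type cyclins, had averaged log2 fold changes of 0.15 ± 0.25 (edgeR adjusted p = 0.831) and 0.12 ± 0.19 (adjusted p = 0.837). Without Ahr-null female replicate 1 that of Ccnd2 was -0.04 ± 0.20 (adjusted p = 0.925). Per kilobase of exon, the level of Ccnd1 was 0.867 CPM in control females, below that of Ccnd2 (2.76 CPM) and Ccnd3 (1.56 CPM), and in Ahr-null females it was 4.50 CPM, above that of Ccnd2 (3.44 CPM) and Ccnd3 (1.46 CPM). In males these levels of Ccnd1, Ccnd2 and Ccnd3 were 0.816, 2.0 and 1.37 CPM in controls and 2.07, 2.0 and 1.72 CPM in Ahr-null livers. The kinase gene Cdk4 had a log2 fold change of 0.19 ± 0.19 (adjusted p = 0.696). Cdk6, which encodes the other kinase bound by D-type cyclins, had the highest mean CPM of the G1 genes. Its levels were 28.4, 27.0 and 25.4 CPM in control males, 21.1, 28.3 and 21.1 CPM in control females, 25.3, 22.8 and 22.6 CPM in Ahr-null males, and 44.7, 23.7 and 23.7 CPM in Ahr-null females. Each Ahr-null male was below each control male, while in females the high value was that of replicate 1, the library with neural transcripts. The averaged log2 fold change of Cdk6 was 0.10 ± 0.19 with all libraries and -0.05 when those with neural transcripts were left out.

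Cyclin E binds CDK2 at the start of S phase, and the averaged estimates of its genes had opposite signs. Ccne1 was at 0.414, 0.546 and 0.250 CPM in control females and at 1.47, 2.04 and 1.55 CPM in Ahr-null females, so the female groups were apart. In males Ccne1 was at 0.842, 0.929 and 1.27 CPM in controls and at 0.750, 1.09 and 0.710 CPM in Ahr-null livers, and the groups overlapped. The log2 fold change of Ccne1 was 2.07 ± 0.47 in females (edgeR adjusted p = 0.11) and -0.28 ± 0.43 in males (adjusted p = 1.0). With the libraries with neural transcripts left out Ccne1 passed in females (2.18 ± 0.49, adjusted p = 0.041). Ccne2 had an averaged log2 fold change of -0.32 ± 0.21 (adjusted p = 0.520), and Cdk2 one of 0.23 ± 0.32 (adjusted p = 0.788).

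**Figure D2:**
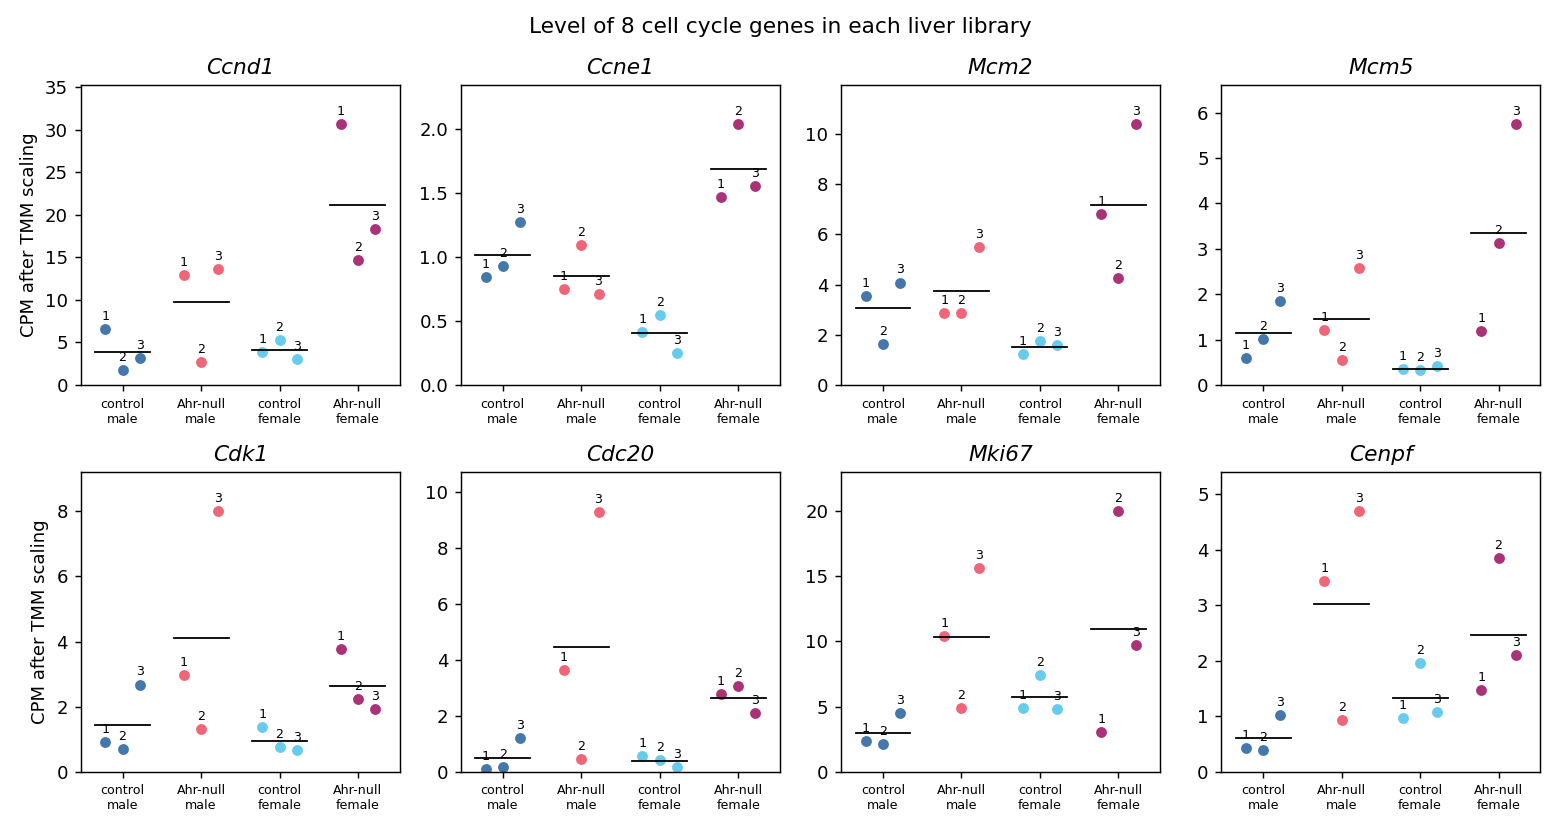
CPM after TMM scaling of 8 genes in each library, by genotype and sex; numbers beside the points are replicates and lines are means of 3. Ccnd1, Ccne1, Mcm2, Mcm5, Cdk1 and Cdc20 have all 3 Ahr-null females above the control females, and Ahr-null male replicate 2 lies lowest of its group for each of the 8 genes but Ccne1.

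None of the 8 genes of origin licensing and the MCM helicase passed in the edgeR test, although all 8 had averaged log2 fold changes above 0, between 0.11 and 1.77, and 6 had an unadjusted p under 0.05. CDC6 and CDT1 load the MCM2 to MCM7 helicase onto origins. The upstream sequences of Mcm2 and Mcm5, the licensing genes with the smallest p in the averaged comparison, are shown for the factor motifs that they carry. They are the 250 bases before the start site in RefSeq on GRCm38.p6, read 5′ to 3′ on the gene's strand, and capitals mark the motif matches described next. The stretch of Mcm2 is chr6:88898781-88899030 on the minus strand and that of Mcm5 is chr8:75109259-75109508 on the plus strand.
Mcm2: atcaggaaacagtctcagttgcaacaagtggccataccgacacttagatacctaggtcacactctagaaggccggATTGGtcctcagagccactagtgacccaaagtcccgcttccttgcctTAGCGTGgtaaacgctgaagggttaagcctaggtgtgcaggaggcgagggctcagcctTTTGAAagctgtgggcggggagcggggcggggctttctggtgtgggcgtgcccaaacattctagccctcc
Mcm5: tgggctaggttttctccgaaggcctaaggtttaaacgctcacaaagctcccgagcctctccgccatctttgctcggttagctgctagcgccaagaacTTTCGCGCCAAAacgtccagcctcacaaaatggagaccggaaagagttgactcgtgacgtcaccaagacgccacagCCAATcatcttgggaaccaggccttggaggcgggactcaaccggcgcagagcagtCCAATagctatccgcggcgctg
In the Mcm5 stretch TTTCGCGC and GCGCCAAA, both forms of the E2F site, run into each other, and CCAAT stands at 77 and at 22 bases before the start. The Mcm2 stretch holds no E2F site in the forms searched. It holds TTTGAA, a cell cycle homology region (CHR) as bound by the DREAM complex, at 70 bases before the start, an inverted CCAAT box at 175 bases, and at 128 bases TAGCGTG, which has the core letters of the Ahr-bound element TNGCGTG. A match is a description of letters and not of binding.

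Mcm2 and Mcm5 were apart between the female groups and not between the male groups. Mcm2 was at 1.24, 1.75 and 1.58 CPM in control females and at 6.80, 4.27 and 10.4 CPM in Ahr-null females. In males it was at 3.54, 1.63 and 4.08 CPM in controls and at 2.88, 2.87 and 5.49 CPM in Ahr-null livers. The log2 fold change of Mcm2 was 2.24 ± 0.45 in females (edgeR adjusted p = 0.079), 0.29 ± 0.42 in males (adjusted p = 1.0) and 1.26 ± 0.31 averaged (adjusted p = 0.0761). Mcm5 was at 0.345, 0.327 and 0.416 CPM in control females against 1.19, 3.13 and 5.74 CPM in Ahr-null females, and at 0.589, 1.01 and 1.85 CPM in control males against 1.22, 0.543 and 2.57 CPM in Ahr-null males. Control females therefore held the lowest levels of Mcm5 and Ahr-null females 2 of the highest 3. The log2 fold change of Mcm5 was 3.19 ± 0.73 in females (adjusted p = 0.111), 0.34 ± 0.64 in males (adjusted p = 1.0) and 1.77 ± 0.48 averaged (adjusted p = 0.109). Both genes passed in females in the fit that omits the libraries with neural transcripts, at 2.30 ± 0.48 for Mcm2 (adjusted p = 0.034) and 3.60 ± 0.61 for Mcm5 (adjusted p = 0.0175).

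The other subunits of the helicase had lower estimates. Mcm3, Mcm4 and Mcm6 had log2 fold changes of 1.40, 1.69 and 1.5 in females and of 0.13, 0.09 and 0.25 in males, none past the test. Mcm3 was higher in each Ahr-null female (5.33, 2.77 and 7.68 CPM) than in each control (1.59, 2.07 and 2.33 CPM). Mcm7, the licensing gene with the highest mean CPM, was at 11.4, 11.7 and 13.7 CPM in control males, 12.1, 7.64 and 13.1 CPM in control females, 12.5, 12.2 and 12.9 CPM in Ahr-null males, and 6.34, 14.9 and 16.3 CPM in Ahr-null females. Its groups overlapped in both sexes, and its averaged log2 fold change was 0.11 ± 0.23 (edgeR adjusted p = 0.871). The loading factor genes Cdc6 and Cdt1 had averaged log2 fold changes of 1.0 ± 0.46 (adjusted p = 0.319) and 0.74 ± 0.43 (adjusted p = 0.440). Cdt1 was at 3.12, 2.71 and 2.87 CPM in Ahr-null females against 0.690, 2.62 and 1.08 CPM in control females, the lowest Ahr-null value lying close to the highest control value.

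The 5 genes of the replication clamp, of E2F1 and of nucleotide supply had averaged log2 fold changes between -0.02 and 0.84, none past the edgeR test and none with an unadjusted p under 0.05. Rrm1, the large subunit gene of ribonucleotide reductase, was at 2.07, 1.75 and 1.67 CPM in control females and at 5.88, 2.53 and 5.74 CPM in Ahr-null females, which were all higher. In males the groups of Rrm1 overlapped, at 1.94, 1.32 and 3.89 CPM against 1.66, 1.47 and 5.76 CPM. Rrm2, the small subunit gene, was at 5.69 CPM in Ahr-null female replicate 1 and between 0.853 and 3.59 CPM elsewhere, with an averaged log2 fold change of 0.41 ± 0.43 (adjusted p = 0.712). Without that library the estimate of Rrm2 was -0.10 ± 0.34 (adjusted p = 0.898), and without both libraries with neural transcripts it was -0.08 ± 0.36 (adjusted p = 0.932). Tyms, the gene of thymidylate synthase, had the highest mean CPM of these 5, at 7.41, 5.42 and 6.95 CPM in control males, 5.25, 9.82 and 6.49 CPM in control females, 4.58, 6.44 and 6.35 CPM in Ahr-null males, and 8.91, 6.07 and 9.0 CPM in Ahr-null females. Its groups overlapped in each sex, and its averaged log2 fold change was -0.02 ± 0.21 (adjusted p = 0.983). Pcna, the gene of the sliding clamp of DNA polymerase, had one of 0.31 ± 0.26 (adjusted p = 0.620), and E2f1, a transcription factor gene of the G1 to S switch, one of 0.67 ± 0.32 (adjusted p = 0.340).

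The cyclins of S, G2 and M phase, Cdk1 and Foxm1 did not pass either. Cdk1, the kinase gene of mitotic entry and the one with the highest mean CPM of these 5, was at 0.926, 0.697 and 2.68 CPM in control males, 1.38, 0.764 and 0.666 CPM in control females, 2.96, 1.32 and 8.01 CPM in Ahr-null males, and 3.77, 2.23 and 1.93 CPM in Ahr-null females. The female groups were apart, and in males only replicate 2 fell inside the control range. The averaged log2 fold change of Cdk1 was 1.48 ± 0.47 (edgeR adjusted p = 0.166), with 1.5 in males and 1.45 in females. Ccna2, the gene of cyclin A2, was at 1.29, 2.04 and 1.93 CPM in Ahr-null females, above 1.17, 0.873 and 0.749 CPM in control females, and had an averaged log2 fold change of 1.09 ± 0.42 (adjusted p = 0.232). Ccnb2, of cyclin B2, had one of 1.22 in males and 0.07 in females, and Foxm1, of a factor that activates mitotic genes, one of 1.09 and 0.86. Ccnb1, of cyclin B1, was too low for the fit. It had 90 counts over the Ahr-null males against 8 over the control males, a ratio of 7.16 after scaling (95% interval 3.48 to 17.1, counting error only), and most came from replicate 3, at 2.76 CPM against 0.750 and 0.0776 CPM in replicates 1 and 2. In females it had 11 counts against 3, a ratio of 2.87 (0.757 to 16.0). Neither interval holds the spread between livers, so neither is a test of genotype. In the 12 alternatives that fitted Ccnb1 its averaged log2 fold change was 1.8 to 3.07. It passed in 0 of them, with an edgeR adjusted p between 0.2 and 0.521.

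The 11 genes of mitosis all had averaged log2 fold changes above 0, from 0.15 to 2.93, and 7 had an unadjusted p under 0.05, but none passed in the edgeR test. The upstream stretches of Cdc20 (chr4:118437344-118437593, minus strand) and Cenpf (chr1:189688087-189688336, minus strand), the mitosis genes with the smallest p, are shown beside those of the licensing genes.
Cdc20: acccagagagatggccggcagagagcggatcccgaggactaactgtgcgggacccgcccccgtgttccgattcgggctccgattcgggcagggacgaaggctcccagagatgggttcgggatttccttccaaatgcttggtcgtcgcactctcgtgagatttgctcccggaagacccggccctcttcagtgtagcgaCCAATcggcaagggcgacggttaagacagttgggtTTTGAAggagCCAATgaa
Cenpf: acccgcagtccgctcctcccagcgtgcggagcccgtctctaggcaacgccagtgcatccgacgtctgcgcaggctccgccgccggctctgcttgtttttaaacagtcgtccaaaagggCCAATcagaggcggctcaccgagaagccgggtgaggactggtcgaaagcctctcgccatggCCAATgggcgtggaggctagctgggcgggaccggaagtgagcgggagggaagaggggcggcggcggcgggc
The Cdc20 stretch holds CCAAT at 53 bases before the start, TTTGAA at 18 bases and a second CCAAT at 8 bases, the pairing of CCAAT and CHR that is typical of genes repressed by DREAM in resting cells. The Cenpf stretch holds CCAAT at 132 and at 71 bases before the start, and its TTTGAA lies just past the printed bases, at position 3 of the transcript. Neither window holds an E2F site in the forms searched. The Mcm2 window is like them in holding TTTGAA and a CCAAT box without an E2F site. That of Mcm5 holds E2F sites and no CHR.

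Cdc20 encodes the activator of the anaphase-promoting complex, and it had the largest averaged log2 fold change of the 36 tested genes. It was at 0.0842, 0.155 and 1.21 CPM in control males and the Ahr-null males had 3.63, 0.465 and 9.28 CPM. In females it was at 0.552, 0.436 and 0.167 CPM in controls and at 2.76, 3.07 and 2.10 CPM in Ahr-null livers. The females were apart, and of the Ahr-null males replicate 2 fell inside the control range. The averaged log2 fold change of Cdc20 was 2.93 ± 0.68 (edgeR adjusted p = 0.0618). Cdc20 passed in 2 of the 12 omissions of single libraries. One was without Ahr-null male replicate 2 (3.20 ± 0.57, adjusted p = 0.0186), where 1.99% of all genes passed. The other was without Ahr-null female replicate 1 (2.93 ± 0.73, adjusted p = 0.0463), where 4.78% of all genes passed. Cdc20 did not pass when both libraries with neural transcripts were omitted (2.71 ± 0.76, adjusted p = 0.0853).

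Mki67 encodes the proliferation marker Ki-67 that coats mitotic chromosomes. It was at 2.36, 2.09 and 4.52 CPM in control males against 10.4, 4.89 and 15.6 CPM in Ahr-null males, each of which was higher. In females it was at 4.90, 7.42 and 4.83 CPM against 3.03, 20.0 and 9.72 CPM, where Ahr-null replicate 1 was below every control. The averaged log2 fold change of Mki67 was 1.36 ± 0.41 (edgeR adjusted p = 0.148). With the libraries with neural transcripts left out it was 1.53 ± 0.35 (adjusted p = 0.0357). Cenpf, the gene of a kinetochore protein, was at 0.421, 0.387 and 1.02 CPM in control males against 3.43, 0.931 and 4.70 CPM in Ahr-null males, and at 0.966, 1.96 and 1.08 CPM in control females against 1.47, 3.85 and 2.10 CPM in Ahr-null females. Replicate 2 of the Ahr-null males and replicate 1 of the Ahr-null females kept those groups from parting. The averaged log2 fold change of Cenpf was 1.60 ± 0.44 (adjusted p = 0.108).

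The Aurora kinase genes had larger estimates in males than in females. Aurka, whose kinase acts at spindle poles, was higher in each Ahr-null male (1.70, 1.47 and 3.20 CPM) than in each control male (0.421, 0.542 and 0.574 CPM), with a log2 fold change of 2.04 ± 0.65 in males and 0.53 ± 0.62 in females. Aurkb, of the chromosomal passenger kinase, had estimates of 1.83 in males and 0.62 in females. Bub1b, of the spindle checkpoint, was also higher in each Ahr-null male, at 1.81, 0.776 and 2.01 CPM against 0.505, 0.465 and 0.637 CPM, and Plk1 was higher in each Ahr-null female, at 1.47, 2.95 and 2.65 CPM against 1.04, 1.31 and 1.08 CPM. Cenpa, of the centromeric histone and with the highest mean CPM among the mitosis genes, was at 8.17, 7.90 and 9.49 CPM in control males, 8.15, 6.98 and 8.66 CPM in control females, 11.2, 8.22 and 11.5 CPM in Ahr-null males, and 4.78, 12.8 and 14.4 CPM in Ahr-null females. The groups of Cenpa overlapped in both sexes, and its averaged log2 fold change was 0.35 ± 0.24 (edgeR adjusted p = 0.524). Top2a, Bub1 and Birc5, the genes of a topoisomerase, a checkpoint kinase and survivin, had averaged log2 fold changes of 0.89, 0.70 and 0.15.

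A motif search was run over the promoter windows of 300 bases in RefSeq on GRCm38.p6, from 250 before to 50 after each start, both strands. Of the 37 genes 30 had an entry, with 32 windows. The other 7 had none and were not searched: Ccnd1, the gene called above, with Ccnd2, Ccne2, Ccna2, Mcm4, Aurkb and Foxm1. The E2F site was searched as TTTCCCGC, TTTCGCGC, TTTGGCGC and TTTGCCGC. It was in 8 of the 32 windows (25%), against 2.26% of all 32851 windows, and in 6 of 8 windows of the licensing genes but 0 of 10 of the mitosis genes. The CHR, as TTTGAA or TTCGAA, was in 13 of 32 (40.6%, against 19.2% of all), and in 9 of 10 mitosis windows but 2 of 8 licensing windows. CCAAT was in 71.9% of the windows, against 37.4% of all, and an E2F site and a CCAAT box overlapped in Mcm7. The Ahr element, as TNGCGTG, was in 2 of 32 windows (6.25%), those of Mcm2 and Cdt1, against 5.07% of all windows. An absent match says only that these letters are not in the window.

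Within a genotype the livers differed. Ahr-null male replicate 3 held the highest level of the 12 libraries for 14 of the 37 genes and Ahr-null female replicate 3 for 11, while the 6 control libraries together held it for 1. Ahr-null male replicate 2 was the lowest of its group for 28 of the 37, among them all 11 mitosis genes, all 5 of S, G2 and M phase and 7 of the 8 licensing genes. It exceeded every control male for 4 genes, against 17 and 29 for replicates 1 and 3. Over all genes tested these shares were 25.8%, 27.8% and 29.9% for replicates 2, 1 and 3. In Ahr-null females, replicates 1, 2 and 3 exceeded every control female for 19, 27 and 27 of the 37 genes, against 40.0%, 31.4% and 32.8% of all genes tested. Replicate 1, the library with neural transcripts, was the lowest of its group for 8 of the 11 mitosis genes. Shares over all genes are not given for the highest and lowest places, so those counts describe the listed genes only.

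The order of the livers was alike for the mitosis and licensing sums in Ahr-null males and differed in Ahr-null females. The 11 mitosis genes summed to 20.4, 17.2 and 28.5 CPM in control males and to 43.6, 23.1 and 68.6 CPM in Ahr-null males, and to 23.6, 30.3 and 23.5 CPM in control females and 23.8, 62.8 and 44.7 CPM in Ahr-null females. Of the 6 Ahr-null livers 4 were thus above every control, and Ahr-null male replicate 2 and Ahr-null female replicate 1 were inside the control range. The 8 licensing genes summed to 24.0, 22.9 and 31.4 CPM in control males, 18.4, 18.0 and 21.7 CPM in control females, 24.4, 23.3 and 39.2 CPM in Ahr-null males, and 28.8, 34.7 and 56.6 CPM in Ahr-null females. Here the females were apart and the males overlapped. The share of counts from mitochondrially encoded genes ran opposite to the mitosis sums in Ahr-null males, at 38.9% in replicate 1, 52.7% in replicate 2 and 30.4% in replicate 3, while the control males held 46.7% to 57.3%. In Ahr-null females it was 39.8%, 51.8% and 59.8% and did not run opposite to their mitosis sums. The control females held 56.5% to 69.8%. Replicates 1 and 2 of the Ahr-null females lay below that range and replicate 3 inside it. With mitochondrial counts left out, the averaged comparison again called Ccnd1 alone, where 1.11% of all genes passed. That fit only removes these genes and rescales the libraries. The part of the mitochondrial share in these results was not tested.

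**Figure D3:**
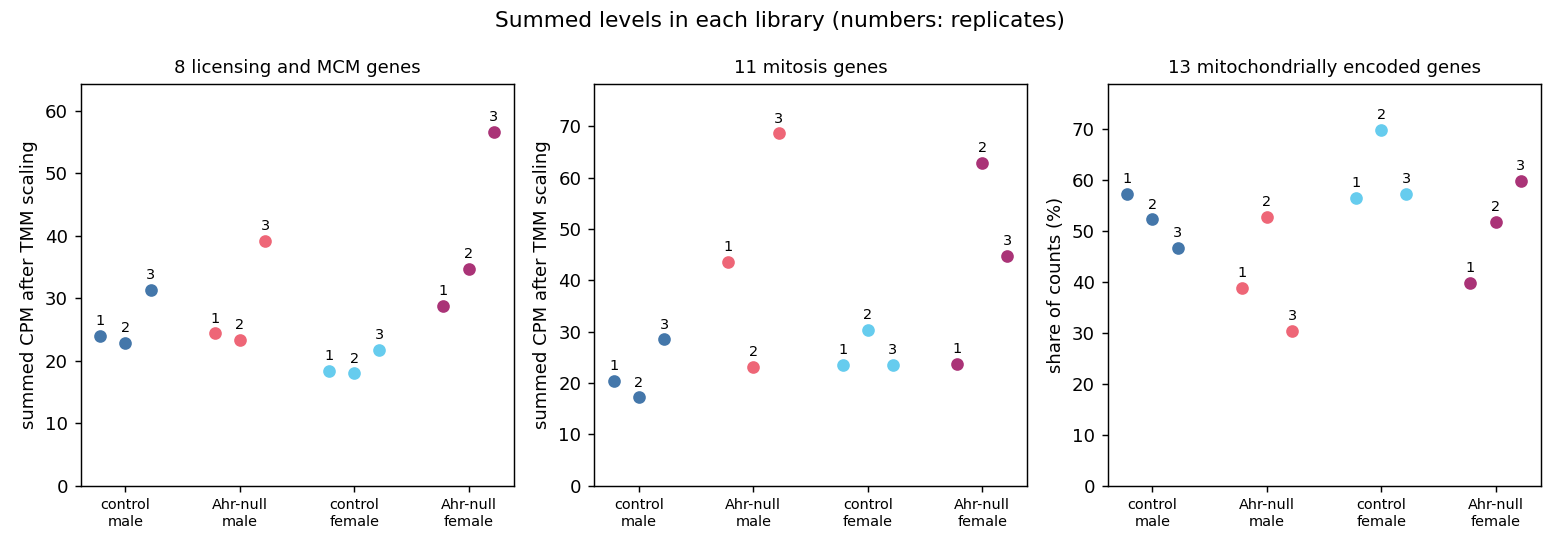
Summed CPM of the 8 licensing and MCM genes and of the 11 mitosis genes, and the share of counts from mitochondrially encoded genes, in each library; numbers are replicates. Ahr-null male replicate 2 (23.1 CPM of mitosis genes, 52.7% mitochondrial) lies with the control males, and the licensing sums of the Ahr-null females (28.8 to 56.6 CPM) lie above those of the control females.

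Taken by sex, no gene of the 37 passed the edgeR test in males or in females. In males 9 had an unadjusted p under 0.05, all higher, against 2.96% of all genes higher at that threshold, and 0.0367% of all genes passed. DESeq2, limma-voom and limma on the deposited values also called 0 in males, where DESeq2 called 0.777% of all genes, and without the libraries with neural transcripts 0 passed, where 0.196% of all genes did. In females 9 had an unadjusted p under 0.05, all higher, against 7.94% of all genes, and 0.161% of all genes passed. DESeq2 called 4 in females, Ccnd1, Ccne1, Mcm2 and Mcm5, where it called 3.60% of all genes, and both limma fits called 0. Without the libraries with neural transcripts 3 passed in females, Ccne1, Mcm2 and Mcm5, against 1.71% of all genes.

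Different roles led in the sexes by their medians. The licensing genes had a median log2 fold change of 1.45 in females and 0.27 in males, and the mitosis genes one of 0.91 in females and 1.52 in males. All 3 Ahr-null females lay above all 3 control females for 11 of the 36 tested genes (Ccnd1, Ccne1, Ccna2, Cdk1, Cdc20, Cdt1, Mcm2, Mcm3, Mcm5, Rrm1 and Plk1), against 9.22% of all genes, and below for 0, against 9.86%. In males 4 were apart as higher (Ccnd3, Mki67, Aurka and Bub1b), against 6.55% of all genes, and 1 as lower (Cdk6), against 7.34%. The list of those higher in females and that of those higher in males share no gene, and no gene was apart as higher in both sexes, against 1.28% of all genes. No gene had all 6 Ahr-null livers above all 6 controls, against 0.616%.

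The difference between the sexes was tested by the interaction, coded as the effect in males minus that in females. None of the 36 passed in the edgeR test, where 0.00733% of all genes did, nor by DESeq2 or either limma fit, and 3 had an unadjusted p under 0.05, against 4.6% of all genes. By edgeR these were Ccne1 (adjusted p = 0.836), Mcm2 (adjusted p = 0.883) and Mcm5 (adjusted p = 0.883), each with a larger estimate in females. The contrast of the sexes is therefore given by these values and not as a call. In controls, males against females gave no call among the 36, where 0.352% of all genes passed, and in Ahr-null livers none, where 0.279% did. In each of these, 3 of the 36 had an unadjusted p under 0.05, against 5.79% and 8.68% of all genes, and DESeq2 and both limma fits called 0. In controls these were again Ccne1, Mcm2 and Mcm5, all higher in control males, with an adjusted p of at least 0.631. In Ahr-null livers they were Ccnd2, Ccne1 and Mcm2, all lower in Ahr-null males, with an edgeR adjusted p of at least 0.531.

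**Figure D4:**
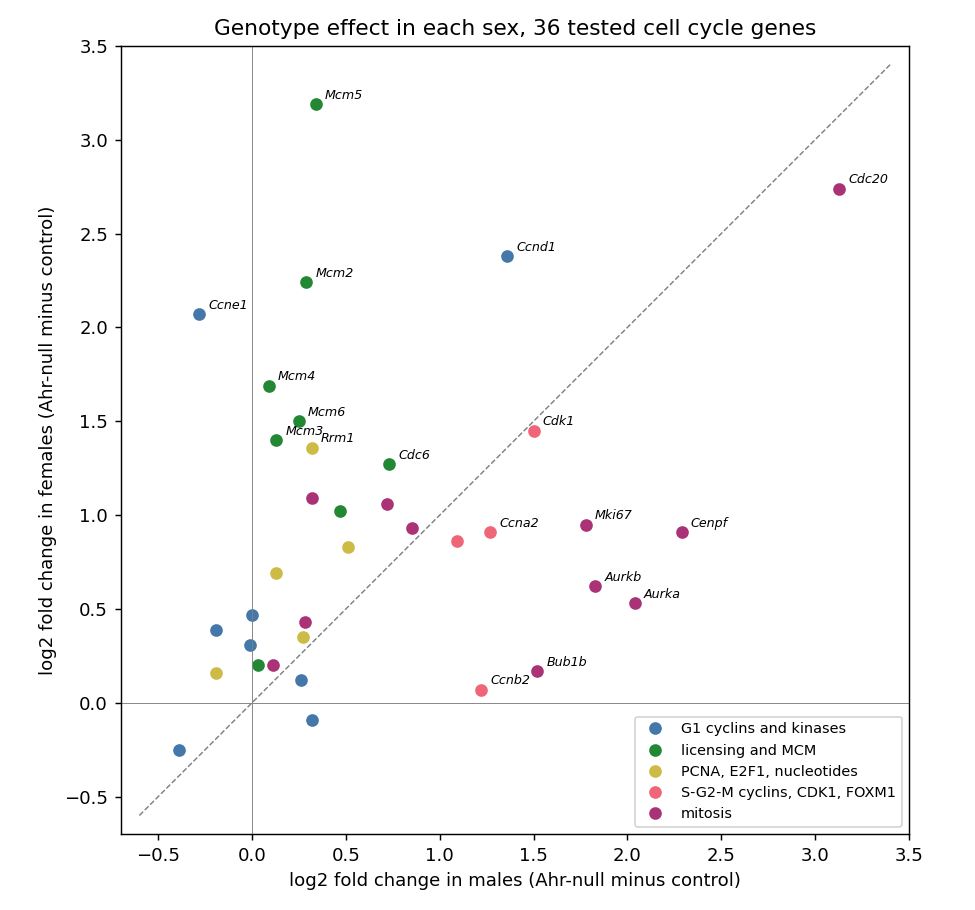
Log2 fold change of each of the 36 tested genes in females (vertical) against males (horizontal), coloured by role, with a dashed line of equal effect. Mcm5 (3.19 in females, 0.34 in males), Mcm2 and Ccne1 lie above the line, and Aurka (2.04 in males, 0.53 in females) and Cenpf lie below it.

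Other genes of the same pathways were read from lists that hold none of the 37. Among 8 inhibitors of cyclin-dependent kinases, of which 6 were tested, 1 rose and none fell. That gene was Cdkn1a, whose product p21 blocks CDK2 and is induced by p53. It was at 9.77, 8.44 and 7.71 CPM in control males and at 68.3, 35.7 and 59.8 CPM in Ahr-null males, with no overlap, and at 8.97, 14.6 and 8.74 CPM in control females and 8.27, 16.1 and 9.89 CPM in Ahr-null females, which overlapped. Its log2 fold change was 2.66 ± 0.34 in males (edgeR adjusted p = 0.0235), 0.09 ± 0.33 in females (adjusted p = 0.927) and 1.38 ± 0.24 averaged (adjusted p = 0.0186). The interaction of Cdkn1a was 2.57 ± 0.47 (unadjusted p = 0.00011, adjusted p = 0.376). Cdkn3, Cdkn2c and Cdkn1b had averaged log2 fold changes of 1.72, 1.02 and -0.26.

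Of 35 other mitosis genes 34 were tested, and none passed in the averaged edgeR comparison. Of these 34, 31 had a log2 fold change above 0, against 54.2% of all genes tested, with a median of 0.83. An unadjusted p under 0.05 was reached by 16, all higher, against 7.84% of all genes tested being higher. Hmmr, of a spindle protein, was at 3.16, 0.155 and 5.37 CPM in Ahr-null males against 0.155 to 0.253 CPM in control males, and at 3.77, 2.89 and 1.60 CPM in Ahr-null females against 0.583 to 1.42 CPM in control females. Replicate 2 of the Ahr-null males was again at the control level, while the females were apart, and the averaged log2 fold change was 2.76 ± 0.62 (adjusted p = 0.0556). Ube2c, of a ubiquitin-conjugating enzyme that acts with CDC20, had one of 2.45 ± 0.56 (adjusted p = 0.0589), and Cdc25c and Mad2l1 had 2.53 ± 0.67 and 1.49 ± 0.39 (adjusted p = 0.0983 and 0.0981).

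The remaining pathway lists had medians closer to that of all genes (0.04) than the other mitosis genes had. At an unadjusted p under 0.05, 7.84% of all genes tested were higher, and the share that was lower is not given here. Of 33 other origin and fork genes 31 were tested, with a median of 0.21 and 0 past the edgeR test. An unadjusted p under 0.05 was reached by 5, of which 4 were higher and 1 lower. They were led by Rpa2 (0.90), Prim1 (0.62), Rfc2 (0.45) and Mcm10 (-0.63). Of 13 other nucleotide synthesis genes 12 were tested, with a median of -0.01 and 0 past the test. An unadjusted p under 0.05 was reached by 4, of which 2 were higher and 2 lower. Among them Tk1, of thymidine kinase, and Paics, of purine synthesis, had log2 fold changes of -1.07 ± 0.31 and -0.74 ± 0.23 (adjusted p = 0.137 and 0.150), and Dut and Cad had 0.70 and 0.72. The 18 genes of the RB family, other E2F factors and DREAM had a median of 0.03, with 0 past the test and 1 with an unadjusted p under 0.05, Rbl1, of the pocket protein p107 (0.88 ± 0.31, adjusted p = 0.199). E2f7, Tfdp2 and Rbbp4 followed at -0.77, -0.29 and -0.22. Of 18 other cyclins and kinases 17 were tested, with a median of -0.12 and 0 past the test or with an unadjusted p under 0.05. Their smallest p were those of Ccnt1 (-0.43), Ccnf (-0.49), Cdk12 (-0.28) and Ccng1 (0.40). Of 9 histone genes only 3 were tested, H2afx (0.60), H2afz (-0.05) and Hist1h4d (0.02), none past the test and 1 with an unadjusted p under 0.05. Of 18 genes of hepatocyte growth signals 16 were tested, with a median of 0.02 and 0 past the test. An unadjusted p under 0.05 was reached by 3, of which 1 was higher and 2 lower. The smallest p were those of Egfr (0.79), Met (-0.45), Il6ra (-0.88) and Tgfa (0.74).

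Markers of other cell types were summed in each library. The 12 T and NK cell markers summed to 18.1 to 24.7 CPM in Ahr-null females against 12.6 to 12.7 CPM in control females, and to 9.85 to 16.6 CPM in Ahr-null males against 8.42 to 11.3 CPM in control males. Cd3e was at 2.20, 1.2 and 1.05 CPM in Ahr-null females and at 0.109 to 0.345 CPM in control females. Of the 9 tested markers, 7 had a log2 fold change above 0 in females and 2 below, the lowest at -0.47. None of the 12 was at 0 in every library. The B and plasma cell markers, 7 of 8 matched, summed to 8.52 to 14.2 CPM in control males, 9.99 to 18.7 CPM in Ahr-null males, 13.6 to 37.7 CPM in control females and 9.28 to 29.9 CPM in Ahr-null females. No B, T or NK cell marker passed in the averaged edgeR test. Of the tested B markers 3 of 6, and of the T and NK markers 5 of 9, had an unadjusted p under 0.05. All of these were higher, against 7.84% of all genes tested being higher.

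The red blood cell precursor markers, 9 of 10 matched and mostly globin genes by level, summed to 69.2 to 211 CPM in control males against 117, 315 and 678 CPM for replicates 1, 2 and 3 of the Ahr-null males. In females they summed to 74.0 to 218 CPM in controls and 212 to 321 CPM in Ahr-null livers. Of these markers 8 were tested, and none passed in the averaged edgeR test. An averaged log2 fold change above 0 was found for 7 of the 8. An unadjusted p under 0.05 was reached by 5, all higher, against 7.84% of all genes tested being higher. The 14 macrophage markers summed to 319 to 397 CPM in control males, 344 to 520 CPM in Ahr-null males, 518 to 712 CPM in control females and 477 to 649 CPM in Ahr-null females. Within that list the scavenger receptor gene Marco rose (2.16 ± 0.34, edgeR adjusted p = 0.0148) while Gpnmb, which macrophages filled with lipid express, fell (-1.64 ± 0.33, adjusted p = 0.0337). The cholangiocyte and stellate cell lists reached 284 and 1199 CPM in Ahr-null female replicate 1, against at most 148 and 594 CPM in the other libraries. The 8 endothelial markers ranged from 115 to 185 CPM over the 12 libraries. The 9 neutrophil and bone marrow precursor markers ranged from 1.60 to 14.9 CPM. The part of any of these cells in the levels of the cell cycle genes was not tested.

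Some of the counts could hold reads of neighbouring genes. In the GENCODE M21 annotation 13 of the 37 genes share exon bases with another gene, and the strand setting of the read counting was not given in the sources used here. Ccnd1 shares 1100 of its 4709 exon bases with LTO1 on the opposite strand, whose averaged log2 fold change was 0.25 ± 0.21 (edgeR adjusted p = 0.625). Cdk4 shares 641 bases with Tspan31 (1.12 ± 0.26, adjusted p = 0.0589) and Cdc20 shares 53 with Elovl1 (0.37 ± 0.15, adjusted p = 0.275). The levels of these pairs are uncertain to that extent.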

How the data were processed

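Total RNA of 12 livers was sequenced, 3 per genotype and sex. The authors deposited raw counts per gene. They also deposited variance-stabilised values near the log2 scale, whose name gives DESeq2 as the tool. The submitters' processing notes list STAR 2.7.8, DESeq2 1.28.1, Trim Galore 0.6.5 and FastQC 0.11.8 and the build GRCm38. How reads were counted, whether by strand, and against which annotation was not given in the sources used here. Genes were filtered with filterByExpr, which left 13641 of 27304, scaled by TMM and tested with edgeR 4.0.16 (R 4.3.3; glmQLFit, robust, and glmQLFTest) on group means of the 12 libraries (8 residual degrees of freedom). P-values were adjusted by Benjamini-Hochberg over all tested genes and called under 0.05. The steps were tested on simulated data. Log2 fold changes of genotype are Ahr-null minus control, and those of sex are males minus females. A prior count of 2 was used only for log2 CPM compared between replicates of a group, not for these fold changes. Replicates of a group differed by a chi-square of at least 22.2 per degree of freedom, so none were merged. Titles number the libraries singly, so replicate numbers follow accession order.

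The genes and lists were chosen with earlier results of these data known. Values per library are given for every called gene, for the gene of highest mean CPM in each role, and, chosen after their values were seen, for genes with small p-values or groups that did not overlap. Of each other pathway list, called genes and up to 4 with the smallest averaged p are named. Promoters are shown for the 4 genes of smallest averaged p with an entry. Exon lengths and overlaps came from GENCODE M21, which held 27275 of the gene IDs. Alternatives were RLE scaling, library size alone, other count filters, no robust step, mitochondrial counts left out, DESeq2 1.42.0, limma 3.58.1 (voom, and on the deposited values), omission of the libraries with neural transcripts, and of each library in turn. At these depths 1 count was worth 0.0395 to 0.109 CPM, and levels near that are uncertain. Intervals cover counting error only, and no molecular identifiers are named.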

Additional observations from a re-analysis of the deposited data

How the results depend on the processing

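No paired analysis was possible because the titles number the libraries singly and no number is shared between groups. In the averaged comparison 1 of the genes passed, where 1.06% of all genes did. With library size alone 15 did (7.72% of all genes), without the low-count filter 0 (0.579%) and with DESeq2 7 (4.87%). With limma-voom 0 did (0.858%), with limma on the deposited values 0 (1.24%) and without the libraries with neural transcripts 4 (3.14%). Leaving out single libraries gave between 0 and 6. It gave 6 on omission of Ahr-null female replicate 1 (4.78% of all genes) and 3 on that of Ahr-null male replicate 2 (1.99%). It gave 1 on that of control male replicate 1 (0.511%) and 0 on that of any of the other 9 (0.0419% to 0.717%). In females 0 passed. There library size alone gave 4 (0.858% of all genes), DESeq2 4 (3.60%) and the omission of the libraries with neural transcripts 3 (1.71%). Leaving out single libraries gave 0 to 2 in females, with 2 on omission of Ahr-null female replicate 1 (1.1%). In males 0 passed under all 23 alternatives, and for the interaction and both sex contrasts under all 22. Under library size alone all genes had a median log2 fold change of 0.53 in place of 0.04, with 986 genes called higher and 67 lower, so its 15 calls are relative to that shift. Ccnd1 kept its direction in all 22 alternatives and lost its call in 12, with 1.87 without the low-count filter (adjusted p = 0.0635), 1.83 with limma-voom (0.0775) and 1.51 on the deposited values (0.0530). Over the omissions of single libraries its log2 fold change ran from 1.69 to 2.17. Cdk1 passed with library size alone (2.0) and DESeq2 (1.51). The averaged estimate changed sign in at least 1 alternative for 8 of the genes, none of them called. These were Cdk6, at -0.05 without the libraries with neural transcripts and -0.08 to 0.17 over the omissions of single libraries, lowest without Ahr-null female replicate 1; Mcm7, at -0.01 to 0.28 over these omissions, lowest without Ahr-null female replicate 3; and Tyms, at 0.50 with library size alone, 0.00 on the deposited values, 0.00 without the libraries with neural transcripts and between -0.11 and 0.12 over the omissions of single libraries. The other 5 were Ccnd2 (lowest -0.04), Ccnd3 (lowest -0.01), Rrm2 (lowest -0.10) and Birc5 (lowest -0.15) over the omissions of single libraries, and Ccne2 (0.14 with library size alone). The causes of these differences were not tested. Depth limits Ccnb1, Bub1 and Aurkb, which had 112, 95 and 95 counts over the 12 libraries.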
